A study of Arabidopsis thaliana with 30 samples.

Results

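Sunlight contains blue light as well as UV radiation, and the 70 genes described here were chosen because blue light raised them in rosettes of Arabidopsis thaliana while the addition of UV to sunlight left them flat in the wild type. Levels are in CPM, the estimated count of a gene scaled to the total of its library. A gene was taken if its mean was at least 5 CPM in Ler under UV0 and its log2(mean CPM + 1) was higher under UV0 than under blue0 by at least 0.7 in both uvr8-2 and Ler. Its UVA+B and UV0 values in Ler also had to lie within 0.3 of each other. Of 34212 loci in the table, 70 met all conditions, below the largest set of 150 that the rule allowed. All 70 were among the 19980 genes past the filter on low counts, 42 had a symbol in the reference annotation, and the others are given by locus code.

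The libraries came from whole rosettes of 3 week old plants that spent 6 h under sunlight filters, from sunrise to solar noon of 1 day. The genotypes were cry1cry2, which lacks the function of the blue and UV-A receptors cryptochrome 1 and cryptochrome 2, uvr8-2, mutated in the UV-B receptor UVR8, and their wild type Ler. None of the groups received another agent, and before the exposure all plants had grown under lamps whose small UV-A output was filtered away. The 5 long-pass filters are named blue0, UV0, UVA350, UVA and UVA+B, and by these names each lets through more of the short wavelengths than the one before it. Each of the 15 groups had 2 libraries, and a library was made from the RNA of 2 blocks of the field, for each of which 5 rosettes had been pooled. The p-values below therefore measure the spread between pooled libraries of a single outdoor day.

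Totals lay between 12109222 and 22865826 estimated counts per library. Of the mutated genes, CRY1 was lower in cry1cry2 than in Ler by a log2 difference of -0.54 ± 0.11 under UVA350, while CRY2 at -0.32 ± 0.18 and UVR8 in uvr8-2 at 0.16 ± 0.09 were not called there (edgeR quasi-likelihood test, Benjamini-Hochberg adjusted p = 0.00446, 0.291 and 0.863). All 3 genes were thus still transcribed, and the transcript level does not check the label of an allele that makes an inactive protein. The 5 leaf mesophyll markers summed to between 23800 and 37140 CPM in each library, against 1.32 to 7.22 CPM for 6 floral and 0.547 to 1.93 CPM for 5 root markers. Chloroplast genes took over 1% of the counts in 3 libraries, each of them replicate 2 of its group: cry1cry2 under UVA, cry1cry2 under UVA+B and uvr8-2 under blue0.

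Cryptochromes are flavoproteins that, once they have absorbed blue or UV-A light, hold back the COP1-SPA ubiquitin ligase and thereby spare transcription factors such as HY5. UVR8 is a dimer that falls apart in UV-B and acts on the same ligase. Blue light also reaches phototropins and the ZTL, FKF1 and LKP2 family of F-box photoreceptors, which cry1cry2 still has. Among the 70 genes are 1 of those photoreceptors (FKF1), a clock repressor (PRR5), an antenna protein gene of photosystem II (LHCB4.3), genes of photorespiration and plastid metabolism, and jasmonate genes.

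The sequence before the annotated gene start was read for all 70 genes from the RefSeq genome TAIR10.1, matched by locus code, over 250 bases. The deposited table carries no coordinates and names no build, and TAIR10.1 is the Columbia genome and not that of Ler, so the letters of Ler may differ. The evening element, AAATATCT, which clock MYB factors such as CCA1 and RVE8 are known to bind, was present on either strand in 13 of the 70 genes (18.6%). Among the 19262 tested genes with such a window it was present in 5.09%, and in 12.9% of 294 of the other blue-raised genes described further down. The 13 genes included WRKY42, FER3, PRR5, FKF1, BBX8, BGLU9, PKp3, AT3G13310, AT5G24200, AT4G28140, AT3G03440 and AT5G59130. The windows of 4 of them are shown: 3 clock and photoperiod genes that differed widely between replicates, and WRKY42, one of the called genes with the largest deficit in cry1cry2 under UVA350. They lie at chr1:25508389-25508638 on the plus strand (FKF1), chr5:19563833-19564082 on the minus strand (BBX8), chr5:8358547-8358796 on the minus strand (PRR5) and chr4:2217792-2218041 on the plus strand (WRKY42). Each runs 5′ to 3′ on the strand of its gene and ends at the base before the gene start, and capitals mark the evening element or its reverse complement.
FKF1: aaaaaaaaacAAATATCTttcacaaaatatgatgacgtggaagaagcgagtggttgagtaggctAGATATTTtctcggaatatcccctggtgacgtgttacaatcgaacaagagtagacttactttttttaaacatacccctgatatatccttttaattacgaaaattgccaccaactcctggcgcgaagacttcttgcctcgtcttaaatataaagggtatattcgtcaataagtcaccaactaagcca
BBX8: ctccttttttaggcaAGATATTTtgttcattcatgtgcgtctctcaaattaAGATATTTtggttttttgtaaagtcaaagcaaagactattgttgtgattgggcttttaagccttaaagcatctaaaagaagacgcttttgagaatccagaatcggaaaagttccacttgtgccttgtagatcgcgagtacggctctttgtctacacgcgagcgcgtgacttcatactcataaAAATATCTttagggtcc
PRR5: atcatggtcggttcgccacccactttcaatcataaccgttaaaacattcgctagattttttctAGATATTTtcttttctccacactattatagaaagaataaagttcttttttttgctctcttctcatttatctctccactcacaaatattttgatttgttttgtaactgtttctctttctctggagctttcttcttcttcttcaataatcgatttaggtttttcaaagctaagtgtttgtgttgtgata
WRKY42: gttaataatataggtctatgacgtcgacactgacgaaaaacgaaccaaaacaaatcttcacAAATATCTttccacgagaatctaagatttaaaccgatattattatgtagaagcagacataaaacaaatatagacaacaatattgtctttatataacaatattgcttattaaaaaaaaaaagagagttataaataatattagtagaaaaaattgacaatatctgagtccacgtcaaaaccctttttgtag
BBX8 held the element at 3 places, FKF1 at 2, and PRR5 and WRKY42 at 1. The CCA1 site AAAAATCT, another motif of clock MYB factors, was in 2.86% of the 70 genes, in 6.92% of all and in 11.2% of the other blue-raised genes, the opposite direction to the evening element. Of the other motifs, the G-box CACGTG was in 7.14% of the 70 genes and in 7.42% of all, and the I-box GATAAG in 8.57% and 12.4%. The SORLIP1 motif GCCAC was in 21.4% and 16.0%, and the ACGT core, which the G-box contains, in 54.3% and 44.3%. The telo-box AAACCCTA was in 7.14% and 3.53%, the heat shock element GAANNTTC in 14.3% and 9.38%, and the SORLIP2 motif GGGCC in 24.3% and 19.4%. The Z-box was in 1.43% and 0.758%, the TATA box in 47.1% and 45.7%, the GT1 box in 11.4% and 15.1%, and the T/G-box in 5.71% and 7.29%. These are counts of letters in a window, with no measure of binding.

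The choice of genes used the following values, which are given as a description with no test. On the scale of log2(mean CPM + 1), UV0 exceeded blue0 by a median of 1.02 in uvr8-2 (0.71 to 3.28) and 0.97 in Ler (0.70 to 2.18). UVA+B differed from UV0 in Ler by a median of 0.01 (-0.30 to 0.30). At the edges of the rule, AT4G00955 was inside at 7.13 CPM and AT2G25130 outside at 3.90 CPM. For the blue step VSP2 was inside at 0.701 and ZKT outside at 0.695 in Ler, and CYCD3;2 was inside at 0.707 and AT2G18940 outside at 0.698 in uvr8-2. VSP2 in Ler had 424 and 169 CPM under UV0 and 175 and 189 CPM under blue0, so its blue step there was not seen in replicate 2. AT1G74640 at 0.298 and AT4G36010 at -0.302 bordered the UV limit. With TMM factors in place of column totals, the median of all genes of at least 5 CPM moved to 0.01 from -0.13 for the blue step in Ler and to 0.01 from -0.09 for UVA+B against UV0. On that scaling all 70 genes kept both blue thresholds, while 56 kept the UV limit and the other 14 were past it, so that flat under UV holds for them by column totals only.

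**Figure D1:**
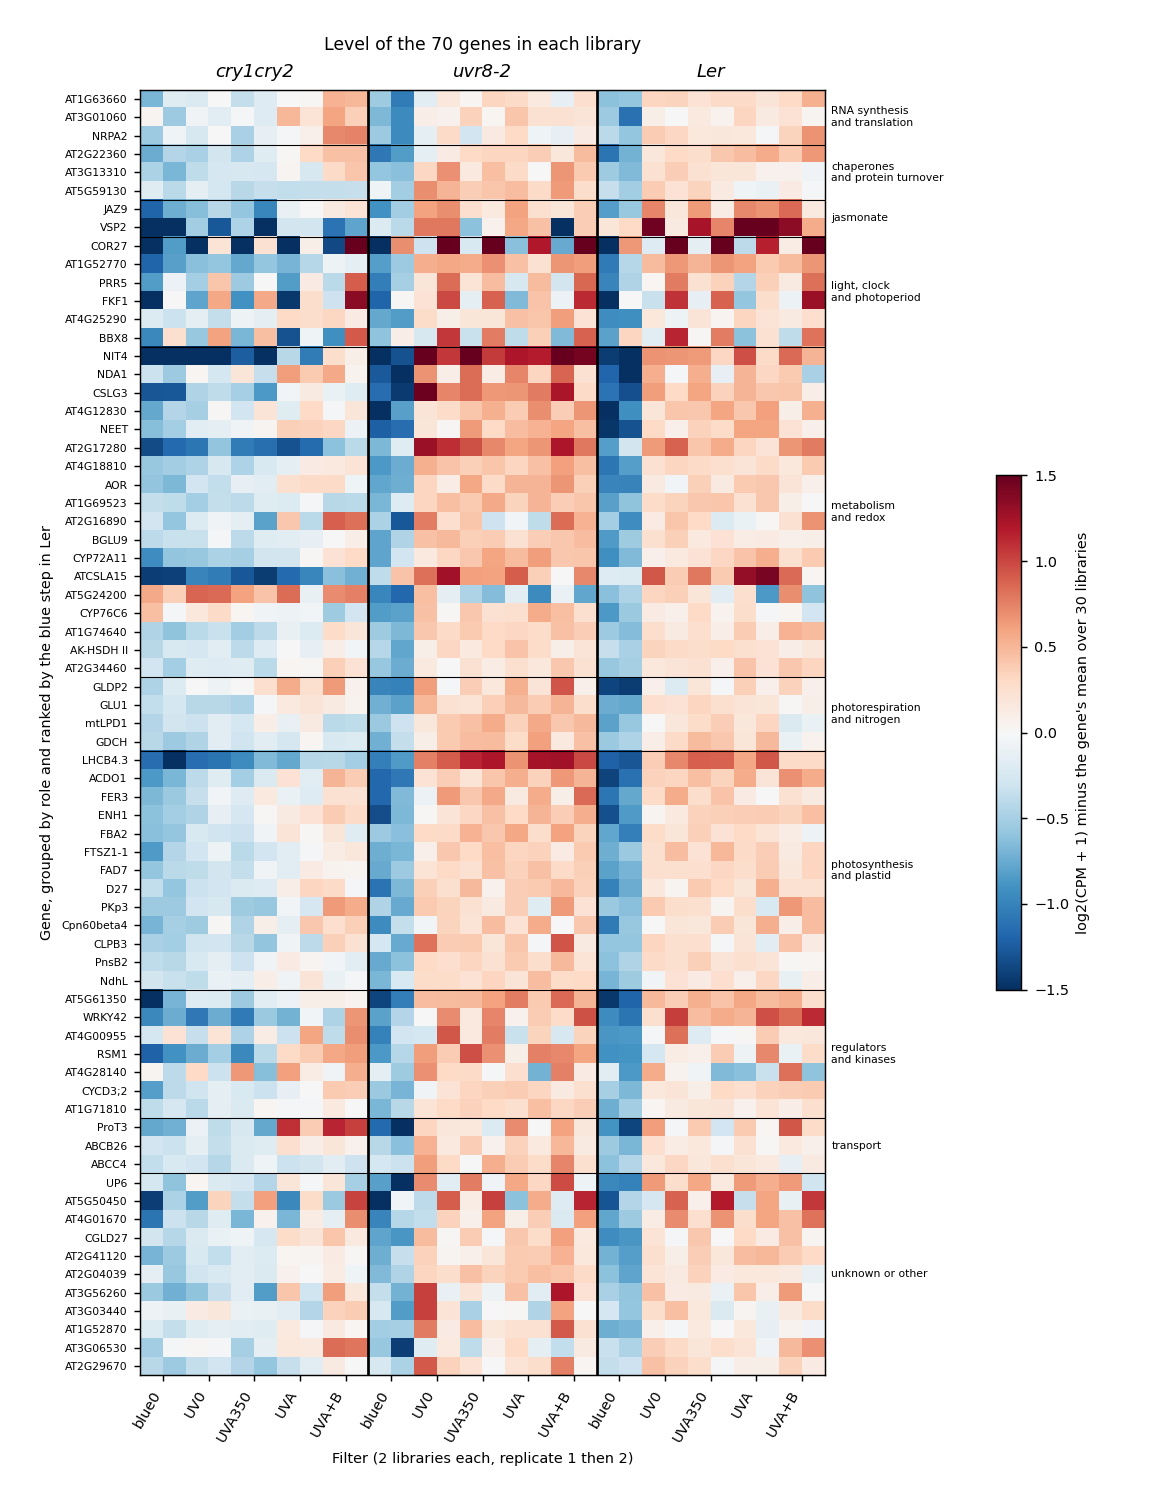
Level of the 70 genes (rows, grouped by role) in the 30 libraries (columns, replicates side by side), as log2(CPM + 1) minus the mean of the gene, colour limited to 1.5 on either side. In the uvr8-2 and Ler blocks the blue0 columns are mostly the blue, low ones and the other filters are mostly red. In the cry1cry2 block most genes stay near or below 0 until UVA and UVA+B.

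The map of all libraries shows the shape of the set. In uvr8-2 and in Ler the genes stood low under blue0 and, by their medians, close to one higher level under the 4 other filters. The rule required the low blue0 level in both genotypes and the flat UVA+B level in Ler. Single genes could leave that level: under UVA in Ler, 36 of the 70 lay below UV0 and 34 above. BBX8 was at -0.76 and ATCSLA15 at 0.69 there. Relative to UV0, the median of the 70 genes in Ler lay at 0.01 under UVA350, 0.00 under UVA and 0.01 under UVA+B. In cry1cry2 the same medians were 0.00, 0.25 and 0.42. Both UV0 libraries lay above both blue0 libraries for 39 of the 70 genes in cry1cry2, for 67 in uvr8-2 and for 66 in Ler, the last pair being fixed by the choice of genes, and over all tested genes these shares were 15.6%, 18.6% and 19.0%.

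NIT4, which encodes a nitrilase that disposes of cyanoalanine formed from cyanide, ranked first. In cry1cry2 it had 4.48 and 3.74 CPM under blue0, 4.79 and 5.77 under UV0, 7.24 and 4.96 under UVA350, 13.5 and 8.38 under UVA, and 22.2 and 19.6 under UVA+B. In Ler it had 6.22 and 5.32 CPM under blue0, 29.9 and 29.6 under UV0, 29.2 and 23.1 under UVA350, 36.8 and 22.6 under UVA, and 34.0 and 26.7 under UVA+B. The Ler libraries thus reached one plateau at the first filter that passed blue light, while the cry1cry2 libraries stayed low until UVA and lay below those of Ler under each of the 5 filters.

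LHCB4.3, an antenna protein gene of photosystem II, had 52.1 and 35.7 CPM in cry1cry2 under blue0, 51.9 and 53.5 under UV0, 59.9 and 72.7 under UVA350, 67.7 and 86.1 under UVA, and 86.3 and 80.8 under UVA+B. In Ler it had 49.4 and 47.1 CPM under blue0, 150 and 191 under UV0, 216 and 215 under UVA350, 173 and 221 under UVA, and 141 and 142 under UVA+B. The genotypes overlapped under blue0 and were apart under the 4 other filters. ACDO1, a plastid kinase gene of the ABC1 family, had 90.3 and 105 CPM in cry1cry2 and 151 and 149 CPM in Ler under UV0, but 170 and 155 CPM in cry1cry2 and 192 and 175 CPM in Ler under UVA+B. The gap of ACDO1 was wide without UV and narrow with it.

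**Figure D2:**
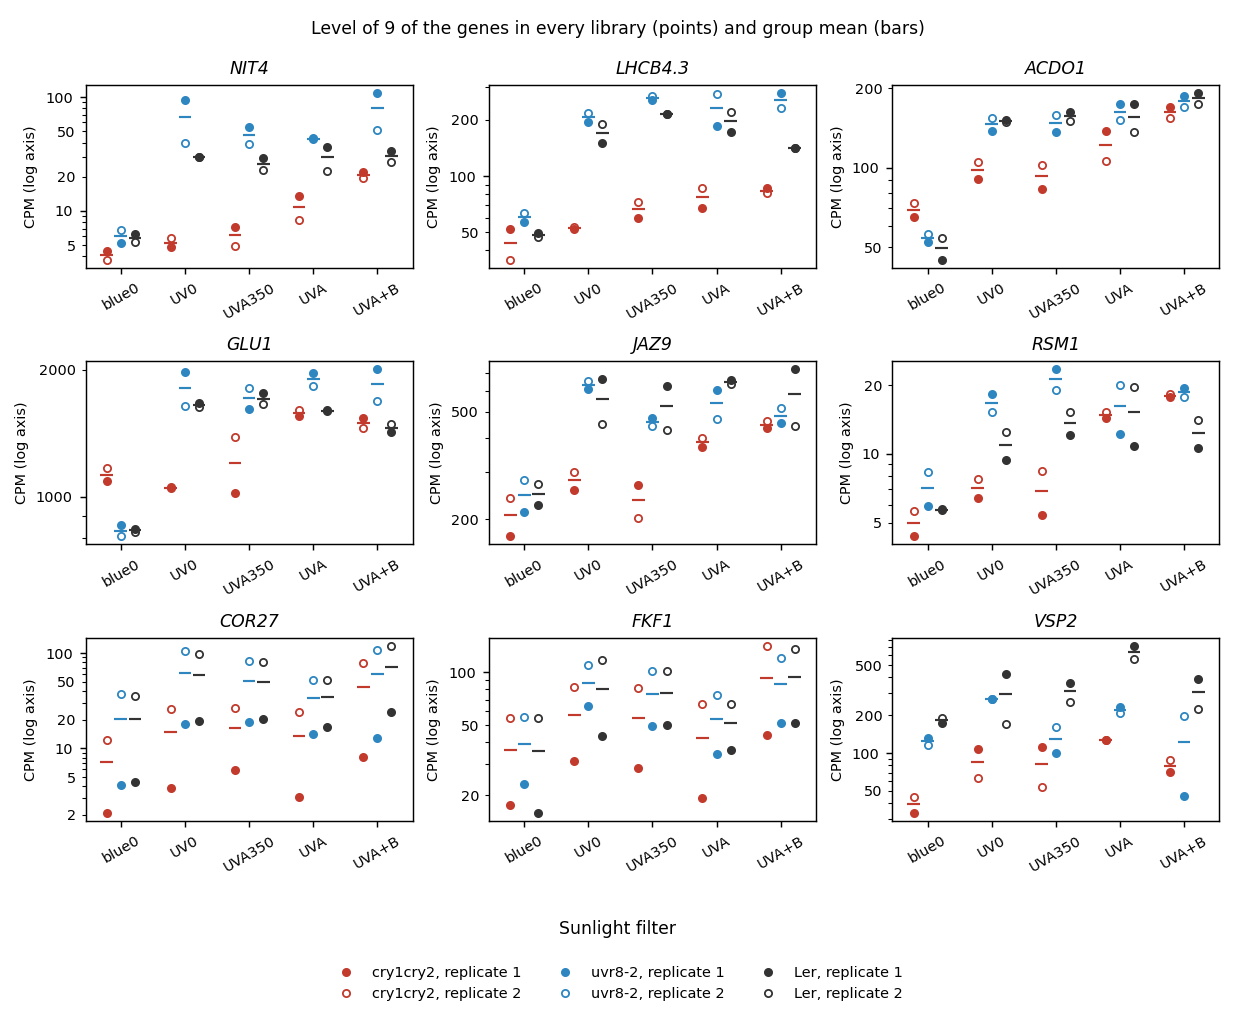
CPM on a log axis of 9 of the genes in every library, by sunlight filter and genotype, with filled points for replicate 1, open points for replicate 2 and bars for the group mean. NIT4 in cry1cry2 reaches 22.2 and 19.6 CPM only under UVA+B, while COR27 and FKF1 have replicate 2 above replicate 1 in all 15 groups.

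Whether the blue step depended on the cryptochromes was asked in cry1cry2, whose libraries the choice of genes did not use. There none of the 70 genes rose and none fell between UV0 and blue0 (edgeR quasi-likelihood test, Benjamini-Hochberg adjusted p under 0.05), against 0.16% of all 19980 genes called higher and 0.015% called lower. At an unadjusted p under 0.05, 14 were higher and 0 lower, with 7.31% of all genes past that p in either direction. DESeq2 called 2 higher, AT5G61350 and CSLG3. Without cry1cry2 blue0 replicate 2 the edgeR count was 1. The median log2 change of the 70 genes was 0.31, with 65 above 0, and the median of all tested genes was 0.00. The smallest p-values belonged to AT5G61350, a receptor-like kinase gene known from root hair growth, at 1.02 ± 0.24 (adjusted p = 0.092), ACDO1 at 0.54 ± 0.15 (adjusted p = 0.215) and NEET, which encodes an iron-sulfur protein, at 0.47 ± 0.13 (adjusted p = 0.222). AT5G61350 had 7.44 and 7.33 CPM under UV0 and 2.43 and 4.93 CPM under blue0 in cry1cry2, so that its libraries did not overlap. A missed threshold with 2 libraries a group does not show that the genes were unmoved, and whether the blue step differed between cry1cry2 and Ler was not tested, because the step in Ler chose the genes.

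**Figure D3:**
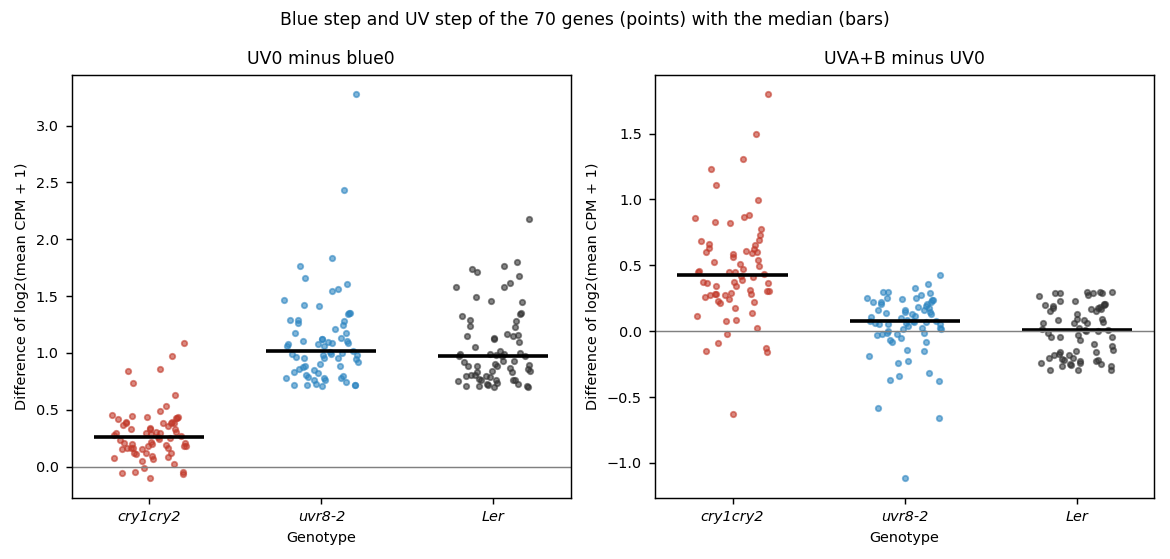
Difference of log2(mean CPM + 1) of the 70 genes (points) between UV0 and blue0 (left) and between UVA+B and UV0 (right) in cry1cry2, uvr8-2 and Ler, with bars at the medians. The blue medians are 0.26, 1.02 and 0.97 and the UV medians 0.42, 0.08 and 0.01, of which the blue values of uvr8-2 and both Ler values were fixed by the choice of genes.

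The pair of steps by genotype is a description: since the rule required a blue step of uvr8-2 and Ler and a flat UV step of Ler, the contrast with cry1cry2 in these steps follows in part from the choice of genes. On the same terms, the genes of cry1cry2 stood above those of Ler under blue0, by a median of 0.25 with 54 of 70 above 0. Under UV0 they stood below those of Ler, by a median of -0.50 with 67 of 70 below 0. Over all genes of at least 5 CPM in Ler under UV0 these medians were -0.04 and 0.04. A rule that asks for a low blue0 and a high UV0 level in Ler favours both differences. The genes with the highest cry1cry2 level relative to Ler under blue0 included NDA1, an alternative NAD(P)H dehydrogenase gene of mitochondria, with 63.2 and 54.2 CPM in cry1cry2 and 34.3 and 21.4 CPM in Ler. GLDP2, for the P-protein of glycine decarboxylase, had 506 and 606 CPM in cry1cry2 and 270 and 261 CPM in Ler under blue0. These libraries did not overlap for either gene. Under blue0 both cry1cry2 libraries lay above both of Ler for 34 of the 70 genes and below for 6, beside 19.2% and 28.8% of all tested genes. The comparison under blue0 was not tested because the rule used the Ler libraries.

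Under UVA350 and UVA, filters that the choice of genes did not use, cry1cry2 could be tested against Ler. Under UVA350, 37 of the 70 genes were lower in cry1cry2 and 0 were higher, against 4.82% of all genes called lower and 4.78% called higher (edgeR, adjusted p under 0.05). The median log2 difference was -0.60, with 68 of 70 below 0, and 0.03 over all tested genes. In bulk rosettes, fewer cells that express a gene and less RNA per cell cannot be told apart. Under UVA the count was smaller, with 7 lower and 0 higher, against 1.47% and 1.91% of all genes, and a median of -0.27. All 7 were among the 37 called under UVA350. Under either filter 0 genes were higher by DESeq2 or at an unadjusted p under 0.05. When 1 library was left out, the remaining library of its group being taken to vary like the other groups, the 37 became 17 without cry1cry2 replicate 1 and 18 without Ler replicate 1, and 26 without either replicate 2. The 7 became 4 without replicate 1 of cry1cry2 or of Ler. Of the 37, 12 were called in each of these fits, among them LHCB4.3, AT2G17280, AT1G52770, ATCSLA15, CSLG3, ACDO1 and FTSZ1-1, and of the 7 these were LHCB4.3, AT2G17280, AT1G52770 and ATCSLA15.

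Among the genes called under UVA350, the 8 with the largest deficit were NIT4 (-2.19 ± 0.43, adjusted p = 0.00372), ATCSLA15 (-2.13 ± 0.33), VSP2 (-1.99 ± 0.55), AT2G17280 (-1.78 ± 0.21), LHCB4.3 (-1.77 ± 0.19), WRKY42 (-1.56 ± 0.44), AT1G52770 (-1.36 ± 0.17) and CSLG3 (-1.26 ± 0.25). ATCSLA15 is of the mannan synthase family and CSLG3 of the cellulose synthase-like family. VSP2 encodes a vegetative storage protein that jasmonate induces, AT2G17280 a protein of the phosphoglycerate mutase family, and AT1G52770 a relative of the phototropism protein NPH3. WRKY42 is a transcription factor gene known from phosphate supply. Under UVA the 7 called were ATCSLA15 (-2.54 ± 0.33), VSP2 (-2.34 ± 0.56), AT2G17280 (-1.65 ± 0.21), LHCB4.3 (-1.37 ± 0.19, adjusted p = 0.000377), AT1G52770 (-1.10 ± 0.16), the cytochrome P450 gene CYP72A11 (-0.66 ± 0.16) and AT1G74640 (-0.42 ± 0.10), of the alpha/beta-hydrolase family. Of the 8 named first, NIT4 lost its call without cry1cry2 UVA350 replicate 2 (-1.965), and VSP2 and WRKY42 without any 1 of the 4 libraries. AT1G74640 under UVA was at -0.28, and not called, without Ler replicate 1.

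How the deficit ran over the filters is given for ATCSLA15, VSP2 and GLU1 as examples, and no classes of genes were tested. ATCSLA15 had 9.94 and 10 CPM in cry1cry2 and 24.4 and 24.3 CPM in Ler under blue0. It had 11.1 and 9.82 CPM in cry1cry2 and 49.4 and 37.1 CPM in Ler under UVA350. Under UVA+B it had 17.9 and 16.7 CPM in cry1cry2 and 51.7 and 28.7 CPM in Ler. VSP2 had 33.7 and 45.0 CPM in cry1cry2 and 175 and 189 CPM in Ler under blue0, and 70.7 and 88.3 CPM in cry1cry2 and 392 and 226 CPM in Ler under UVA+B. For ATCSLA15 and VSP2 the genotypes were already apart under blue0 and stayed apart up to UVA+B, so their deficit under UVA350 was present in part without blue light. The genotypes did not stay apart for GLU1. GLU1, the ferredoxin-dependent glutamate synthase gene that recovers photorespiratory ammonium, had 1021 and 1382 CPM in cry1cry2 and 1759 and 1657 CPM in Ler under UVA350, but 1553 and 1602 CPM in cry1cry2 and 1602 and 1599 CPM in Ler under UVA. Its cry1cry2 libraries thus lay apart from those of Ler under UVA350 and overlapped with them under UVA. Without cry1cry2 UVA350 replicate 1 the difference of GLU1 under UVA350 was -0.38 and not called.

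**Figure D4:**
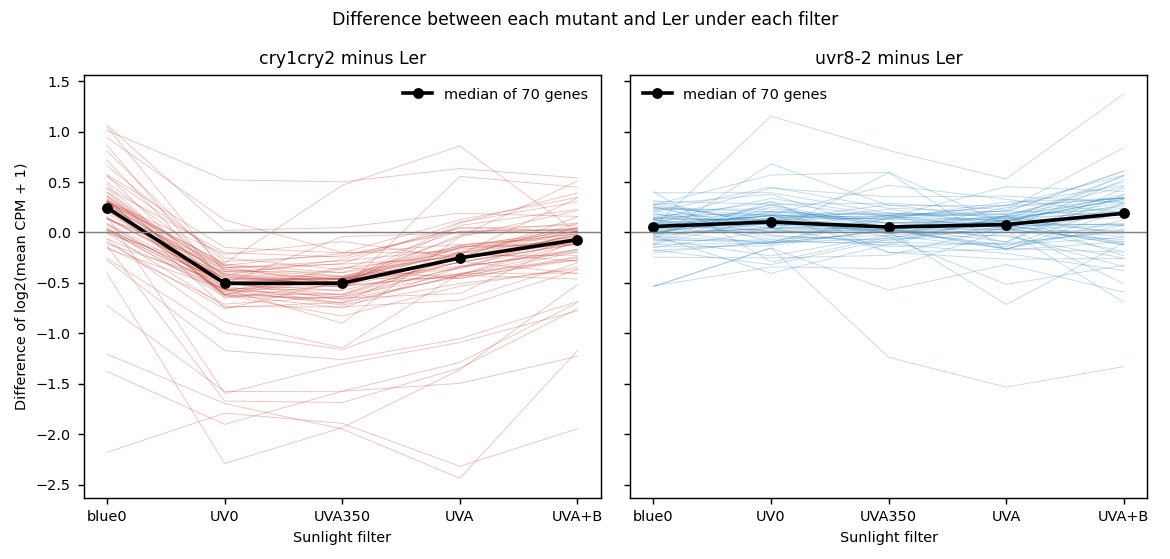
Difference of log2(mean CPM + 1) between cry1cry2 and Ler (left) and between uvr8-2 and Ler (right) under each of the 5 filters, 1 thin line per gene and the median of 70 genes in black. The cry1cry2 median goes through 0.25, -0.50, -0.50, -0.25 and -0.07 and the uvr8-2 median stays between 0.05 and 0.19.

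The lines of differences by filter describe the gap between cry1cry2 and Ler, and the choice of genes fixed the Ler side of it under blue0, UV0 and UVA+B. Between the filters it did not use, the median gap was -0.50 under UVA350 and -0.25 under UVA. Under UVA+B 45 of 70 genes were below Ler and the median was -0.07, as a description. Under UVA350 both cry1cry2 libraries lay below both Ler libraries for 58 genes, under UVA for 42 and under UVA+B for 21, while over all tested genes these shares were 19.5%, 22.9% and 17.9%. That the short UV-A step from UVA350 to UVA was larger in cry1cry2 than in Ler was tested as an interaction, added after the values had been seen. It was called by edgeR for 0 of the 70 genes, against 0.015% of all genes called higher and 0% called lower, and DESeq2 also called 0. At an unadjusted p under 0.05, 9 of the 70 genes were higher and 0 lower, with 3.76% of all genes past that p in either direction. The median difference was 0.33 with 66 of 70 above 0, and the smallest p-values were those of GLU1 (0.55 ± 0.17, adjusted p = 1.00), ProT3 (1.24 ± 0.47) and RSM1 (0.99 ± 0.39).

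In cry1cry2 itself UV raised most of the genes that the rule had taken as flat in Ler. The rule used column totals and the tests use TMM factors. With TMM factors the median UV step of the 70 genes in Ler was 0.11 in place of 0.01, and 56 of them kept the limit. From UV0 to UVA+B, 39 of the 70 rose and 1 fell, against 16.3% of all genes called higher and 17.8% called lower (edgeR, adjusted p under 0.05), and the median log2 change was 0.54 with 66 above 0. The median of all tested genes was -0.03. The largest rises were those of NIT4 (2.09 ± 0.43, adjusted p = 0.00129), the proline transporter gene ProT3 (1.46 ± 0.33), the MYB-related gene RSM1 (1.45 ± 0.28) and WRKY42 (1.41 ± 0.44). They were followed by the glycosyltransferase gene AT2G16890 (1.16 ± 0.33), the plastid pyruvate kinase gene PKp3 (0.99 ± 0.17), NRPA2, a subunit gene of RNA polymerase I (0.98 ± 0.19), and AT3G06530 (0.95 ± 0.23). The 1 that fell was CYP76C6, a cytochrome P450 gene, at -0.60 ± 0.20. Without replicate 1 of UVA+B or of UV0 in cry1cry2, 23 of the 70 genes rose. CYP76C6 lost its call without cry1cry2 UVA+B replicate 1 or cry1cry2 UV0 replicate 2. WRKY42 was at 0.66, and not called, without cry1cry2 UVA+B replicate 2. Without each of the 4 libraries 19 of the 39 stayed called, among them NIT4, LHCB4.3, ACDO1, ProT3, GLU1, PKp3, RSM1, NRPA2 and AT3G06530. Of the 39 that rose, 27 (69.2%) were among the 37 that were lower than Ler under UVA350, beside 52.9% of all 70 genes. Of the 37, 73.0% rose, beside 55.7% of all 70 genes. These comparisons share no library but came from the same fit, and the overlap was not tested. Whether the UV step differed between cry1cry2 and Ler was not tested, since the flat step in Ler chose the genes.

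RSM1 had 17.7 and 18.3 CPM in cry1cry2 under UVA+B and 6.42 and 7.76 CPM under UV0, while in Ler it had 10.6 and 14.1 CPM under UVA+B and 9.41 and 12.5 CPM under UV0. PKp3 had 151 and 143 CPM in cry1cry2 under UVA+B and 78.9 and 81.4 CPM under UV0, against 152 and 134 CPM and 127 and 116 CPM in Ler. For both genes the cry1cry2 libraries of the filters were apart, and under UVA+B they lay above Ler for RSM1 and among the Ler values for PKp3. CYP76C6 had 5.68 and 6.88 CPM in cry1cry2 under UVA+B and 9.74 and 10.8 CPM under UV0, with the libraries apart.

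Split into its parts, the UV step of cry1cry2 had its first calls between UVA350 and UVA. From UV0 to UVA350, 0 of the 70 genes were called in either direction by edgeR or DESeq2, as were 0% of all genes by edgeR. An unadjusted p under 0.05 was reached by 0 of the 70 genes and by 3.05% of all genes. The smallest p-values there were those of LHCB4.3 (0.35 ± 0.19), GLU1 (0.21 ± 0.12) and PKp3 (-0.27 ± 0.17). From UVA350 to UVA, 8 rose and 0 fell, against 2.19% and 1.35% of all genes, with a median of 0.37. They were ProT3 (1.41 ± 0.34), RSM1 (1.16 ± 0.28), AT2G22360 (0.58 ± 0.15), AOR (0.50 ± 0.13), GLU1 (0.48 ± 0.12), AT4G25290 (0.48 ± 0.12), AT2G34460 (0.40 ± 0.11) and AT1G74640 (0.39 ± 0.10). AOR encodes a plastid reductase of reactive carbonyls, AT2G22360 a DnaJ protein and AT4G25290 a protein with a DNA photolyase domain. None of the 70 genes was lower by DESeq2 or at an unadjusted p under 0.05, which 17.7% of all genes passed in either direction. Without cry1cry2 UVA350 replicate 1 or 2 the count of 8 became 0 or 5, and without cry1cry2 UVA replicate 1 or 2 it became 2 in both cases. GLU1 was at 0.27 in this step, and not called, without cry1cry2 UVA350 replicate 1, and at 0.75, still called, without cry1cry2 UVA350 replicate 2.

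From UVA to UVA+B, 7 rose and 0 fell in cry1cry2, against 6.72% and 7.29% of all genes. The share of the 70 genes is thus close to the background. At an unadjusted p under 0.05, 16 were higher and 2 lower, with 28% of all genes past that p in either direction. DESeq2 called 1 lower. The 7 that rose by edgeR were AT2G17280 (0.82 ± 0.22), PKp3 (0.77 ± 0.17), NRPA2 (0.73 ± 0.19), AT1G63660, for GMP synthase (0.52 ± 0.17), CYCD3;2, a cyclin gene (0.47 ± 0.12), AT3G13310, for a DnaJ protein (0.46 ± 0.14), and AT1G74640 (0.40 ± 0.10). These 3 part steps were added after the values had been seen. Without the libraries rich in chloroplast counts, which include replicate 2 of both UVA and UVA+B in cry1cry2, 1 gene rose in place of 8 and 0 in place of 7. In the step from UVA to UVA+B the count was 2 and 3 without UVA+B replicate 1 and 2, and 5 and 1 without UVA replicate 1 and 2.

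By role, in groups made by hand with the members in view, the 13 genes of photosynthesis and the plastid had a median of -0.55 between cry1cry2 and Ler under UVA350, where 8 of them were lower, and of 0.61 for the UV step of cry1cry2, where 9 rose. Examples are FTSZ1-1, for plastid division (-0.78 ± 0.14 and 0.43 ± 0.14), FAD7, a fatty acid desaturase gene of plastid lipids (-0.55 ± 0.12 and 0.49 ± 0.12), and FBA2, for the fructose-bisphosphate aldolase of the Calvin-Benson cycle (-0.54 ± 0.14 and 0.39 ± 0.14). PnsB2, for a subunit of the plastid NDH complex, was lower under UVA350 (-0.53 ± 0.11), and its UV step of 0.20 ± 0.11 was not called. FER3, a ferritin gene of plastid iron storage, was called in neither (-0.43 ± 0.24 and 0.52 ± 0.24). Without cry1cry2 UVA+B replicate 1, FBA2 was at 0.19 for the UV step and not called. The UV step of FTSZ1-1 and both comparisons of FAD7 and FBA2 lost their call without at least 1 library. Of the 18 genes of metabolism and redox, 12 were lower under UVA350, and 10 rose and 1 fell with UV in cry1cry2. Over all 70 genes the shares lower under UVA350 and raised by UV were 52.9% and 55.7%, and nothing particular to a role is read from these counts.

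Photorespiration was present with 3 subunits of glycine decarboxylase, GLDP2, GDCH (H-protein) and mtLPD1 (lipoamide dehydrogenase), and with GLU1. Under UVA350, GDCH (-0.74 ± 0.16), mtLPD1 (-0.47 ± 0.14) and GLU1 (-0.58 ± 0.12) were lower in cry1cry2, and GLDP2 at -0.03 ± 0.24 was not called. GDCH, mtLPD1 and GLU1 lost the call without replicate 1 of cry1cry2 or of Ler, mtLPD1 being at -0.30 without cry1cry2 UVA350 replicate 1. With UV in cry1cry2 only GLU1 of the 4 rose, at 0.63 ± 0.12, while GDCH was at 0.19 ± 0.16, mtLPD1 at -0.04 ± 0.14 and GLDP2 at 0.53 ± 0.24. Over a list of 16 photorespiration genes, 3 of them in the set, 6 were lower and 0 higher in cry1cry2 under UVA350, against 4.82% and 4.78% of all genes, with a median of -0.32. Of the 16, 5 rose and 2 fell with UV in cry1cry2, against 16.3% and 17.8% of all genes, with a median of 0.06, among them CAT2, the leaf catalase gene, which rose by 1.39 ± 0.31, and GOX2, for glycolate oxidase, at -0.57 ± 0.14.

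Jasmonate was represented by JAZ9, a repressor gene of the pathway, and VSP2. JAZ9 had 267 and 202 CPM in cry1cry2 and 622 and 430 CPM in Ler under UVA350 (-1.24 ± 0.24, adjusted p = 0.00243), and 437 and 461 CPM under UVA+B in cry1cry2 against 257 and 300 CPM under UV0 (0.80 ± 0.24). Both comparisons had libraries apart. JAZ9 lost its call under UVA350 without Ler replicate 1 (-0.96), and its UV step lost the call without cry1cry2 UV0 replicate 1 (0.69) or cry1cry2 UVA+B replicate 2 (0.78). VSP2 did not follow it: its UV step in cry1cry2 was 0.02 ± 0.54, and its replicates differed widely, with 45.8 and 199 CPM in uvr8-2 under UVA+B and 424 and 169 CPM in Ler under UV0. The wider list of 10 jasmonate genes, which includes VSP2, had 3 lower and 0 higher in cry1cry2 under UVA350, against 4.82% and 4.78% of all genes, and 4 lower and 0 higher with UV in cry1cry2, against 17.8% and 16.3%.

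Several clock and photoperiod genes were among those with the widest spread between replicates. COR27, a cold-regulated gene that also acts in the clock, had 5.90 and 26.5 CPM in cry1cry2 and 20.1 and 80.4 CPM in Ler under UVA350, and 3.84 and 25.9 CPM in cry1cry2 and 19.5 and 97.2 CPM in Ler under UV0. FKF1 had 28.7 and 81.9 CPM in cry1cry2 and 50.4 and 102 CPM in Ler under UVA350. In both genes replicate 2 was above replicate 1 in each group, so that the groups overlapped, while among libraries of the same number cry1cry2 lay below Ler. In replicate 1, 14 of the 70 genes were lower in all 15 groups and 3 were higher, so a steady difference was not particular to clock genes. COR27, FKF1, BBX8, a B-box gene, PRR5 and AT5G50450 were among the 14 and had the widest differences. Their median differences in log2(CPM + 1) were -2.26, -1.37, -1.17, -0.72 and -1.17. The median size of the replicate difference over the 70 genes was 0.18. Harvest went block by block, and whether a replicate number stands for the same blocks in every group cannot be read from the labels. The part of harvest order in this spread was not tested.

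Of these genes FKF1, BBX8 and PRR5 hold the evening element shown above, and AT5G50450 does not. Under UVA350 libraries of the same number again had cry1cry2 below Ler, with 75.7 against 130 CPM and 111 against 141 CPM for PRR5 and 32.8 against 54.1 CPM and 73.7 against 91.6 CPM for BBX8. The fit makes no use of the replicate number, and in it the differences between cry1cry2 and Ler were -1.67 ± 1.66 for COR27, -0.53 ± 0.92 for FKF1, -0.52 ± 0.82 for BBX8 and -0.61 ± 0.53 for PRR5, and none was called. These calls change when the number enters the fit. Of 19 clock genes on a list that includes PRR5, 0 were lower and 1 was higher in cry1cry2 under UVA350, against 4.82% and 4.78% of all genes. With UV in cry1cry2, 3 of the 19 rose, among them GI (0.76 ± 0.17), which encodes a partner of FKF1, and 2 fell, shares near or below the 16.3% and 17.8% of all genes. Of 13 blue-light receptor and partner genes, which include FKF1, 3 were lower and 3 higher in cry1cry2 under UVA350, against 4.82% and 4.78% of all genes. The list holds CRY1 and CRY2, the genes mutated in cry1cry2, and CRY1 was among the lower. BIC1, an inhibitor gene of cryptochrome, was also among the lower (-1.06 ± 0.21) and PHOT1, a phototropin gene, among the higher (0.54 ± 0.12).

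Loss of UVR8 was tested in the filters that the rule did not use. Under UVA350, 0 of the 70 genes were called between uvr8-2 and Ler, against 0.01% of all genes higher and 0% lower, and under UVA 0 were called, against 0.0951% and 0.15% (edgeR; DESeq2 also called 0 in both). At an unadjusted p under 0.05, 3 were higher and 1 lower under UVA350 and 1 higher and 2 lower under UVA. Over all genes 6.17% and 9.11% passed that p in either direction. The smallest p-values were those of RSM1 (0.67 ± 0.26), NIT4 (0.87 ± 0.38) and VSP2 (-1.21 ± 0.54) under UVA350 and of AT5G59130 (0.45 ± 0.14), VSP2 (-1.55 ± 0.54) and ATCSLA15 (-0.74 ± 0.30) under UVA. NIT4 had 54.3 and 39.1 CPM in uvr8-2 and 29.2 and 23.1 CPM in Ler under UVA350, with the libraries apart but the adjusted p at 0.746.

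Without UVR8, UVA+B against UVA350 called 0 of the 70 genes, against 0.00501% of all genes higher and 0% lower, and DESeq2 called 0. At an unadjusted p under 0.05, 3 were higher and 0 lower, with 4.89% of all genes past that p in either direction. The smallest p-values were those of AT3G03440 (0.60 ± 0.26), AT4G25290 (0.26 ± 0.12) and NIT4 (0.78 ± 0.37). In Ler the step from UVA350 to UVA likewise called 0 of the 70, against 0.185% higher and 0.015% lower, and DESeq2 called 0. At an unadjusted p under 0.05, 2 were higher and 1 lower, with 8.23% of all genes past that p in either direction. The median log2 change there was 0.00, and the smallest p-values were those of ATCSLA15 (0.81 ± 0.30), NEET (0.31 ± 0.13) and AT5G59130 (-0.30 ± 0.14). The rule did not use these Ler libraries.

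**Figure D5:**
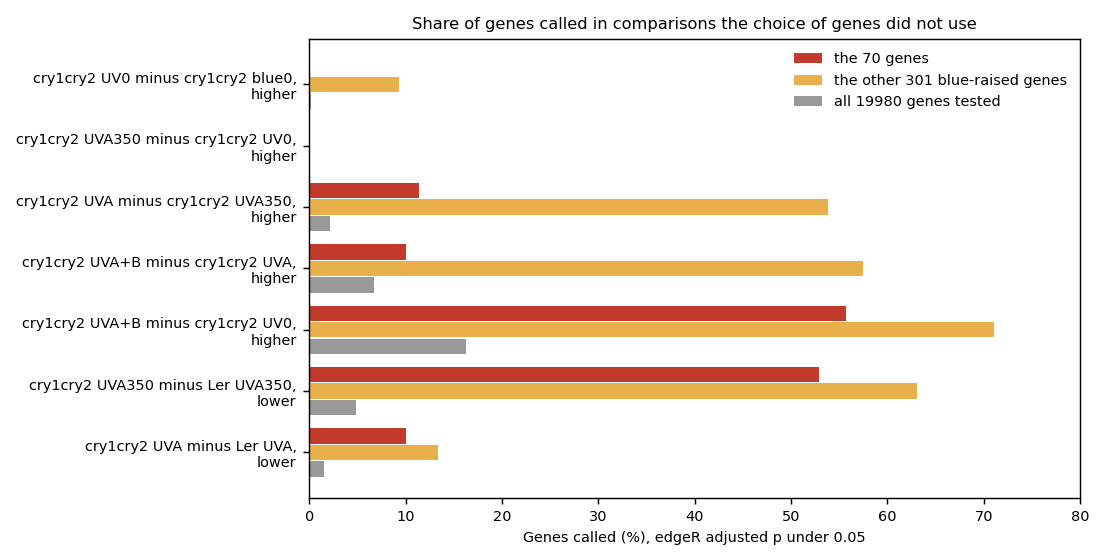
Share of genes called by edgeR (adjusted p under 0.05) among the 70 genes, the other 301 blue-raised genes and all 19980 genes tested, in 7 comparisons and the direction named on the vertical axis. The 70 genes reach 55.7% for the UV step of cry1cry2 and 52.9% for the deficit under UVA350, against 71.1% and 63.1% for the other blue-raised genes.

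The other genes that passed the level and blue thresholds numbered 301, of which 226 were higher and 75 lower by at least 0.3 under UVA+B in Ler. Their shares in the bar plot of calls show where the 70 genes were like them and where they differed. Under UVA350, 190 of the 301 (63.1%) were lower in cry1cry2 than in Ler, with a median of -0.78, beside 52.9% and -0.60 for the 70 genes. The blue step of cry1cry2 was called for 28 of the 301 (9.30%), with a median of 0.54, beside 0 and 0.31. From UVA350 to UVA in Ler 20 of the 301 rose, with a median of 0.35, beside 0 and 0.00. The widest gaps were in the part steps of cry1cry2. From UVA350 to UVA, 162 of the 301 (53.8%) rose there, beside 11.4% of the 70 genes. From UVA to UVA+B, 173 (57.5%) rose and 8 fell, beside 10% and 0 of the 70 genes. The 2 sets of genes were split by the UV step in Ler, so gaps between them in UV steps follow in part from that split. Such gaps are not read as a trait of the 70 genes. The difference between the 2 sets was not tested, since their choice used the same libraries.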

How the data were processed

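The authors deposited estimated counts per locus for 30 libraries in 1 table. The submitters' processing notes name Trimmomatic 0.33, FastQC and kallisto, without a transcriptome or genome build. Groups came from the sample titles. CPM by column total with a pseudocount of 1 chose the genes. Estimated counts were rounded and tested with edgeR 4.0.16 in R 4.3.3: filterByExpr by group, TMM factors, and a robust quasi-likelihood fit of all 30 libraries with a coefficient for each group, which leaves 15 residual degrees of freedom. Genes were called at an adjusted p (Benjamini-Hochberg over 19980 genes) under 0.05, in each of 12 comparisons, 4 of them added after the values were seen. Log2 changes are given ± standard error, taken as the size of the change divided by the square root of the F statistic of its test. The code was tested on simulated counts.

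The genes, lists and roles were chosen with earlier results of these data known. Named genes are the 10 ranked highest, up to 8 called genes with the largest change and no overlap per comparison and direction (or the 3 smallest p-values), up to 4 per list, and those at the thresholds; others were picked as examples after their values were seen. Motifs were searched in TAIR10.1 on both strands. One promoter sequence is not reported here. DESeq2 1.42.0, RLE scaling, no filter on low counts, a replicate block and left-out libraries were tried.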

Additional observations from a re-analysis of the deposited data

How the results depend on the processing

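The rule itself depends on its scaling: with TMM factors it gave 107 genes, 56 of them among the 70, and with a pseudocount of 0.5 it gave 73 (68 shared). Replicate 1 alone gave 93 genes (53 shared) and replicate 2 alone 70 (40 shared). The genes lower in cry1cry2 than in Ler under UVA350 numbered 17 to 26 without 1 library each, and 35 to 54 under the other alternatives. Under UVA the left-out libraries gave 4 to 5 lower and 0 higher. The UV step of cry1cry2 gave 23 to 35 higher and 0 to 1 lower, and 35 to 50 higher otherwise. The blue step of cry1cry2 gave 0 to 1 higher without 1 library, 2 with DESeq2 and 1 without the filter on low counts. The step from UVA350 to UVA in cry1cry2 gave 0 to 5 higher without 1 library, 15 with DESeq2, 3 without the filter and 1 without the libraries over 1% chloroplast counts. From UVA to UVA+B these were 1 to 5, 13 (and 1 lower) with DESeq2, and 0 without the chloroplast-rich libraries. Shares of all genes called are given for the main fit only, so these counts have no background beside them. No called gene reversed its direction under any alternative run, and the causes of the moved counts were not tested, beyond the fewer libraries in a fit.

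Replicates share numbers across groups, and deviations of same-numbered libraries correlated over 0.1 in 101 of 105 pairs of groups (median 0.26), but with 2 numbers only this is a hint and no pairing. With a replicate block, the blue step of cry1cry2 had 3 higher (AT5G61350, FTSZ1-1 and AT5G50450), UVA350 54 lower, UVA 20 lower and 1 higher (ProT3), uvr8-2 under UVA 1 higher (AT5G59130), the UV step 50 higher, the part steps 20 higher (UVA350 to UVA) and 23 higher and 1 lower (UVA to UVA+B), and the interaction 1 higher (ProT3). Under UVA350 the block also called COR27 (-1.79 ± 0.36, adjusted p = 0.00287), PRR5 (-0.67 ± 0.21), FKF1 (-0.63 ± 0.20), BBX8 (-0.60 ± 0.20) and AT5G50450 (-0.61 ± 0.14) lower in cry1cry2, which edgeR without it did not call.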
